A study of Mus musculus with 6 samples.

Results

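The genes described here are 9 genes of blood coagulation and fibrinolysis that act at the vessel wall: Vwf, F3, Tfpi, F5, F8, Thbd, Procr, Plat and Anxa2. They were taken by name from the platform annotation, and each was named by 1 transcript cluster, the group of probes read together for 1 transcribed locus. The 9 clusters, none of them shared with another gene, are 9 of 35556 on the array, and the 9 genes are 9 of 19938 that are named alone by at least 1 cluster. Their RNA was measured in whole brains of male C57BL/6 mice, bought at 7 to 8 weeks of age, with 1 Mouse Gene 1.0 ST array per animal. The LPS-treated mice (n = 3) had been given 1 intraperitoneal dose of 4 mg/kg lipopolysaccharide from Escherichia coli serotype 055:B5, a bacterial outer membrane component that sets off systemic inflammation, 48 hours before their brains were taken. The vehicle-treated controls (n = 3) had been given PBS in the same way, and the vessels of both groups were flushed with PBS before the brains were removed. The labels mark each sample as a biological replicate, so the SDs below are spreads between mice.

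Coagulation starts when blood meets tissue factor, the product of F3, which activates factor VII and through it thrombin, with factors V and VIII as cofactors that speed the steps in between. Endothelial cells hold this in check with tissue factor pathway inhibitor, thrombomodulin and the endothelial protein C receptor, and they dissolve fibrin with tissue plasminogen activator, which annexin A2 gathers with plasminogen at the cell surface. Endothelial cells also make von Willebrand factor, which tethers platelets and carries factor VIII, and they store it in Weibel-Palade bodies. In brain, tissue factor is known to be made mainly by astrocytes.

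Expression is given as the log2 value after robust multichip average (RMA) normalization, and differences are LPS minus PBS on that scale. They were tested with limma over all 35556 clusters, and a gene was called higher or lower at a Benjamini-Hochberg adjusted p under 0.05. On the first principal component (54.5% of the variance) LPS mice 1 and 2 scored 32.9 and 48.3, away from the other 4 mice at -25.2 to -15.2. Their array medians were 7.09 and 7.11, against 6.95 to 6.98 in the other 4 arrays. No 2 arrays were copies, since pairs shared at most 0.0112% of their values.

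Of the 9 genes, 1 passed as higher in LPS-treated mice and 0 as lower, while 8 missed the threshold, where 0.848% of the 19938 genes passed as higher and 0.0351% as lower (0.652% and 0.0619% of all clusters). At an unadjusted p under 0.05, limma gave 2 of the 9 as higher and 1 as lower, against 6.24% and 7.24% of all genes. The methods' t-test, an unpaired test with equal variances on the same values, called none of the 9 after adjustment over all clusters. The median log2 fold change was 0.10 over the 9 genes and -0.02 over all named genes.

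**Figure D1:**
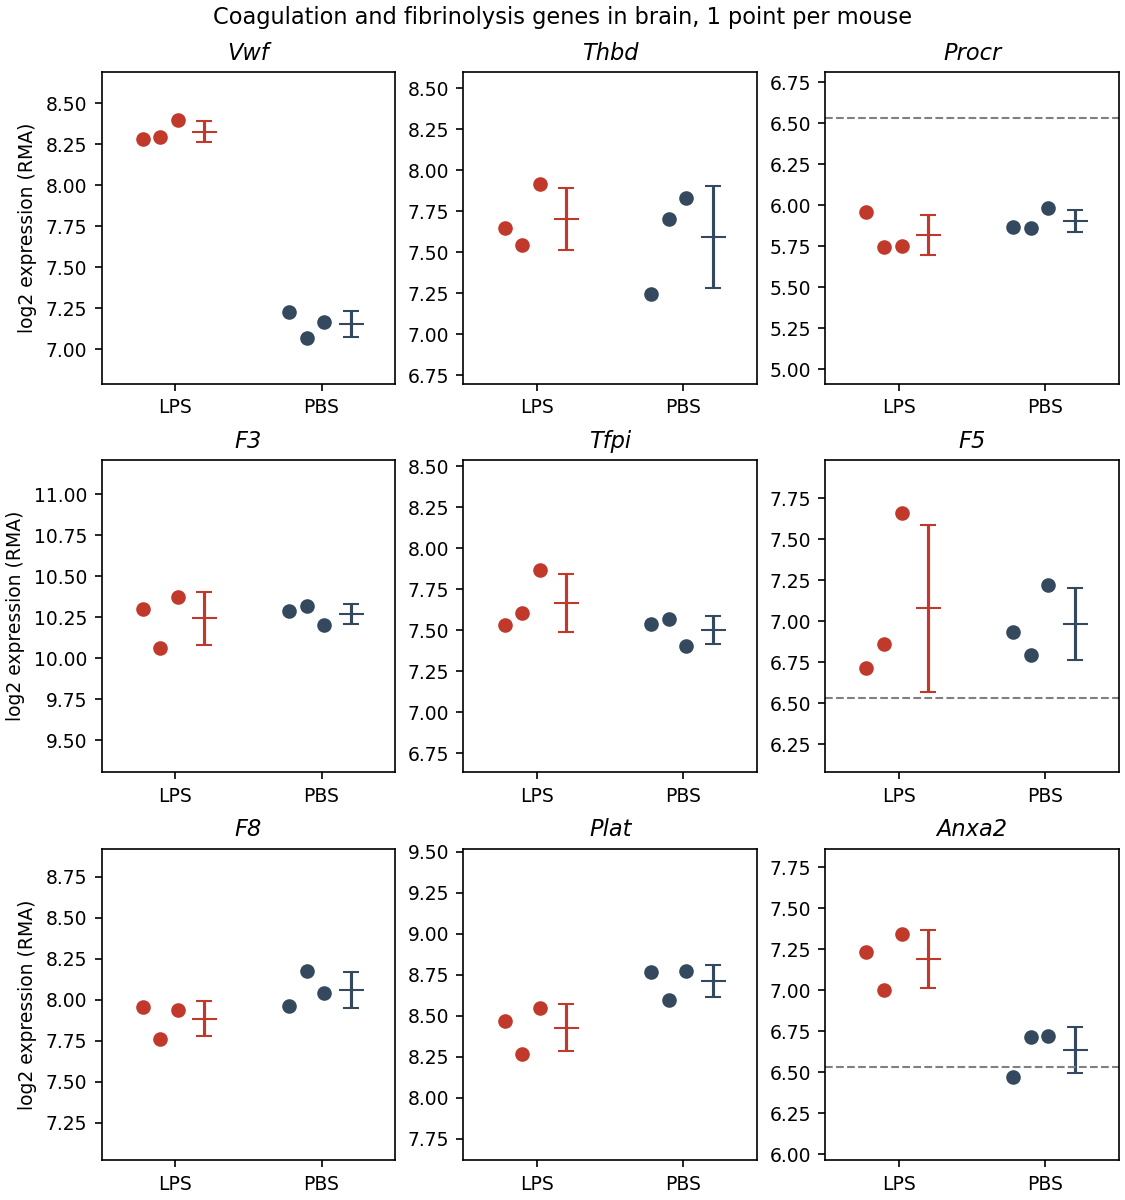
Log2 expression (RMA) of the 9 genes in the brains of LPS-treated mice (red, left) and vehicle-treated controls (dark blue, right), 1 point per mouse. The horizontal mark is the mean and the bar the SD (n = 3 per group), every panel spans the same number of log2 units, and the dashed line, where it falls in the panel, marks the mean over the 6 arrays of the 95th percentile of olfactory and vomeronasal receptor clusters. The groups lie apart without overlap for Vwf and Anxa2, higher after LPS, and for F8 and Plat, lower after LPS.

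Vwf, which encodes von Willebrand factor, was the 1 gene called. Its log2 expression was 8.28, 8.29 and 8.40 in LPS-treated mice, against 7.23, 7.07 and 7.17 in vehicle-treated controls. All 3 LPS values lay more than 1 log2 unit above every control value. The means were 8.32 ± 0.06 after LPS and 7.15 ± 0.08 after vehicle (SD, n = 3 each), a log2 fold change of 1.17 ± 0.08 (SE, n = 3 per group) with a 95% confidence interval of 0.98 to 1.36, or 2.25-fold with an interval of 1.97 to 2.57. The adjusted p was 0.00243 from limma, and Vwf ranked 30 of 35556 clusters by p. The call held without any single array (adjusted p 0.00364 to 0.0261 from limma) and without LPS mice 1 and 2 together (log2 fold change 1.25, adjusted p = 0.0452 from limma). By the methods' t-test the unadjusted p was 3.89e-05 and the p adjusted over all clusters 0.0621, which missed the threshold. In a whole brain, more cells of a type and more RNA per cell cannot be told apart.

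The increase in Vwf went with that of other endothelial genes, though not of these alone. Over the 6 arrays, Vwf had a Pearson's r of 0.995 with the mean of the endothelial markers. It was 0.977 with microglia and macrophage markers and 0.907 with pericyte and smooth muscle markers. For deviations from the group means, r was 0.784, 0.851 and 0.617 in that order. Of 18 markers of endothelial cells, 10 passed limma as higher and 0 as lower, while 8 missed the threshold, and the median log2 fold change was 0.76. Over all named genes, 0.848% passed as higher and 0.0351% as lower. At an unadjusted p under 0.05, 14 were higher and 0 lower, against 6.24% and 7.24% of all genes, and the methods' t-test called none. The genes with the smallest p were Emcn, a sialomucin of capillaries and veins, at 1.08 (adjusted p = 0.00448 from limma), Cldn5, a tight junction protein, at 0.98 (adjusted p = 0.00456) and Tek, the angiopoietin receptor, at 1.04 (adjusted p = 0.00465). The log2 levels of the 18 genes averaged 0.67, 0.67 and 0.75 above the control mean in LPS mice 1, 2 and 3, against 0.01, -0.09 and 0.08 in the controls. Their summed linear level was 12059 to 12241 after LPS and 7587 to 8848 after vehicle. The part of the endothelial share of the tissue in the Vwf result was not tested. The count of 10 dropped to 5 without LPS mouse 1, to 6 without LPS mouse 2, to 4 without PBS mouse 1 or 2, to 5 without PBS mouse 3 and to 1 without LPS mice 1 and 2.

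The genes were set against this endothelial mean, array by array, leaving aside Procr, which was at background in all 6 arrays. Vwf exceeded it by 0.46, 0.47 and 0.49 in LPS mice 1, 2 and 3, against 0.06, 0.00 and -0.06 in the controls, a difference of 0.48 between its log2 change and the mean change of the 18 genes. The single genes of that list ranged from -0.07 (Slc2a1) to 1.08 (Emcn), and Vwf at 1.17 lay just above the highest of them. The 2 groups did not overlap, and the exact two-sided permutation p was 0.1, the smallest that 3 mice against 3 allow. The same difference from the endothelial mean change was -0.58 for Thbd, -0.72 for F3, -0.53 for Tfpi, -0.87 for F8 and -0.98 for Plat, again with no overlap of the groups and an exact permutation p of 0.1. It was -0.60 for F5 and -0.14 for Anxa2, whose groups overlapped (exact permutation p = 0.2 and 0.4). Because the endothelial mean itself rose, a gene that stayed level also falls below it. F3, for example, did so with a log2 fold change of -0.03 of its own. Comparisons of this kind cannot reach 0.05 at this number of mice, and the values are given as a description.

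**Figure D2:**
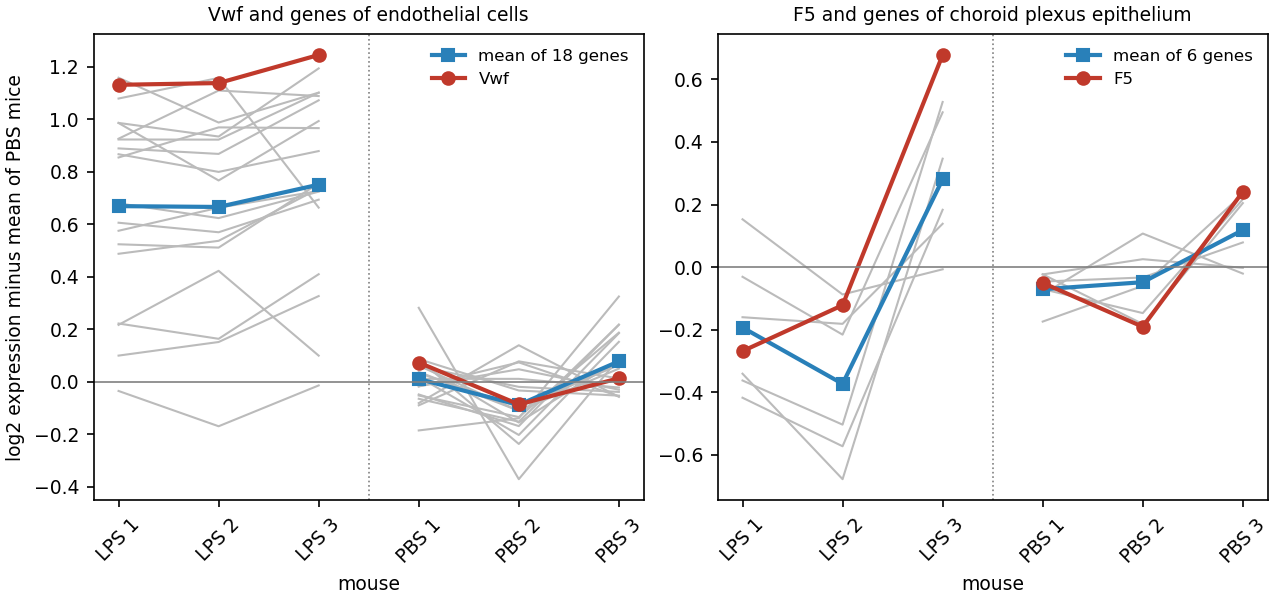
Log2 expression minus the mean of the vehicle-treated controls for each mouse. On the left, Vwf (red) and the mean of 18 endothelial genes (blue) stand above 0 in all 3 LPS-treated mice, and on the right, F5 (red) and the mean of 6 choroid plexus genes (blue) stand highest in LPS mouse 3. Thin grey lines are single genes of each list, and lines join the mice of a group to make a gene's values easy to follow, the mice having no order.

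Platelets also hold von Willebrand factor. Of 11 platelet markers 8 were named alone, and 7 of these stayed at or below the 95th percentile of olfactory and vomeronasal receptor clusters in all 6 arrays. These receptors are hardly transcribed in brain, and the percentile, 6.46 to 6.64 across arrays over 1210 clusters, served as the background level. None of the 8 passed limma, 1 (Gp5) was lower at an unadjusted p under 0.05, and their summed linear level was 547 to 601 after LPS and 573 to 594 after vehicle. Pf4, the platelet chemokine, had 5.78, 6.33 and 6.03 in LPS-treated mice, against 5.87, 5.80 and 5.75 in controls. Platelet markers were thus at background in both groups, with the exception of 1 of the 8.

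Among 19937 other genes, those most like Vwf across the 6 arrays were Gbp7 (Pearson's r 1.00), an interferon-induced GTPase, Casp4 (0.999), an inflammatory caspase that binds LPS, and Fcgr4 (0.999), an Fc receptor of myeloid cells. All 3 passed limma as higher after LPS, with control means of 6.46, 5.38 and 5.64 that were at or below the background level, as was the LPS mean of Casp4 (6.15), so that no exact fold change is given. These correlations follow the split between the groups that the genes share. When only the deviations from the group means were compared, the genes most like Vwf were L1td1, Ccnj and Fitm1 (r 0.999, 0.999 and 0.997), whose log2 fold changes of 0.03, -0.09 and -0.01 did not pass limma.

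Von Willebrand factor leaves endothelial cells from Weibel-Palade bodies, and 6 of 7 other genes of these bodies were named alone. Of these, Edn1 passed as higher and the other 5 missed the threshold, none of them lower at an unadjusted p under 0.05, and the median log2 fold change was 0.11. Edn1, the precursor of the vasoconstrictor endothelin 1, had 7.02, 7.01 and 7.17 in LPS-treated mice, against 6.21, 6.30 and 6.28 in vehicle-treated controls. The log2 fold change was 0.80 with a 95% confidence interval of 0.61 to 0.99 (adjusted p = 0.00934 from limma), and the groups lay apart. Its control values were at or below the background level. Its call ended without LPS mouse 1 (adjusted p = 0.0515), PBS mouse 1 (0.0738), PBS mouse 2 (0.0636) or PBS mouse 3 (0.0686), with log2 fold changes of 0.75 to 0.83 over all single omissions. Rab27a, a GTPase that brings the granules to the cell edge, had 7.53, 7.35 and 7.63 in LPS-treated mice, against 7.07, 7.00 and 7.12 in controls, and did not pass (log2 fold change 0.44, adjusted p = 0.133). Angpt2, which opposes Tek signalling, lay at background in all 6 arrays (0.17, adjusted p = 0.409).

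F3, the initiator of coagulation, had 10.30, 10.06 and 10.37 in LPS-treated mice, against 10.29, 10.32 and 10.20 in vehicle-treated controls. The groups overlapped, and the log2 fold change was -0.03 with a 95% confidence interval of -0.27 to 0.22 (adjusted p = 0.931 from limma). As a ratio, that interval runs from 0.831-fold to 1.16-fold. Astrocytes, its known main source, had 8 of 8 markers above background in every array. None of these passed limma, with 1 higher and 1 lower at an unadjusted p under 0.05 and a median log2 fold change of 0.03. Gfap, the astrocyte filament protein, had the smallest p (0.56, adjusted p = 0.130), and Fgfr3, a growth factor receptor, the next (-0.31, adjusted p = 0.236).

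Tfpi, the endothelial inhibitor of the tissue factor and factor VIIa complex, had 7.53, 7.60 and 7.87 in LPS-treated mice, against 7.54, 7.57 and 7.41 in vehicle-treated controls. LPS mouse 3 was the highest and the other values overlapped. The log2 fold change was 0.17 with a 95% confidence interval of -0.09 to 0.42 (adjusted p = 0.519 from limma).

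Promoters are the stretches before a gene's start that hold binding sites for transcription factors. RefSeq promoters of 6 of the 9 genes (Procr, F3, Tfpi, F5, F8 and Anxa2) were searched on both strands for 8 motifs over 250 bases before to 50 bases after the start, and those of Vwf, Thbd and Plat were not used here. AP-1, a factor that inflammatory signals activate, is shown because F3, a gene that LPS is known to induce in monocytes, held 2 copies of its site and 2 other members held 1. The searched letters TGANTCA, where N is any base, read the same on both strands. They occurred in F3, Procr and Anxa2, 3 of 6 genes, against 7.81% of 32851 mouse promoters of the same 300 bases. The 250 bases before the start of these 3 genes, in build GRCm38.p6 on the plus strand, are printed 5′ to 3′ with the AP-1 letters in capitals, for F3 at chr3:121723287-121723536, Procr at chr2:155750967-155751216 and Anxa2 at chr9:69453433-69453682.
F3: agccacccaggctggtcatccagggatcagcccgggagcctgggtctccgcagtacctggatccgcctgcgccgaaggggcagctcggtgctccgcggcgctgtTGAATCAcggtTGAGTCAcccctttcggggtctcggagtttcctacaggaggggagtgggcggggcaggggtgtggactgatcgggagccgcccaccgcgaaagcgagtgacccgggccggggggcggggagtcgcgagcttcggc
Procr: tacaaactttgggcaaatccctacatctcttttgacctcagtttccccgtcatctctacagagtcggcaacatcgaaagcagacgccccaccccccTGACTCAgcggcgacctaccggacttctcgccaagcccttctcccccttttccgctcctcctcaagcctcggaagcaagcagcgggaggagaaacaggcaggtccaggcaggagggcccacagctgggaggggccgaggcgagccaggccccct
Anxa2: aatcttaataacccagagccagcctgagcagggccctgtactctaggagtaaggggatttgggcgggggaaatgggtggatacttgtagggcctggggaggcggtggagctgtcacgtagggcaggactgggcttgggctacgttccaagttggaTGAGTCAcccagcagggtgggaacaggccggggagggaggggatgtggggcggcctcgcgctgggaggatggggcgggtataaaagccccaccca
With the start as 0, the first bases of the matches lay at -146 and -135 in F3, at -154 in Procr and at -95 in Anxa2. None of these 3 genes passed limma, and a match describes letters, not a bound site.

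**Figure D3:**
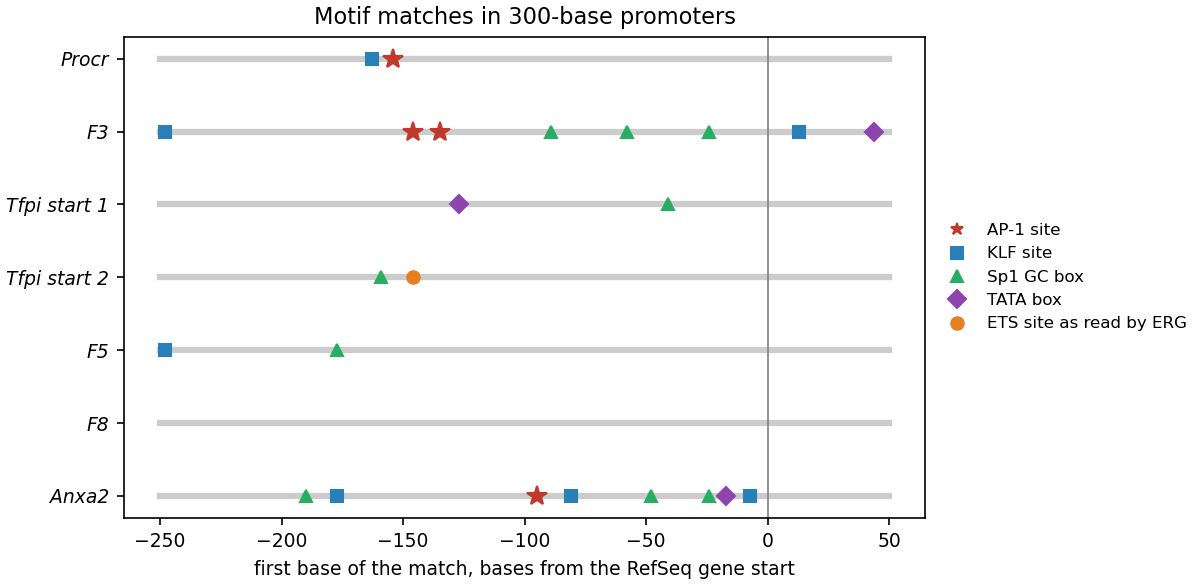
Matches of 5 motifs in the 300-base RefSeq promoters of the 6 genes, with the position of the first base of the match relative to the gene start (0) on the horizontal axis and both starts of Tfpi shown. AP-1 matches (stars) lie from -154 to -95 in Procr, F3 and Anxa2, and F8 has no match to any motif searched.

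The other motifs gave a mixed picture. The KLF letters CCACCC were in 4 of the 6 genes, against 31.5% of all promoters, and the Sp1 letters GGGCGG in 4 of 6, against 35.7%. The TATA letters TATAAA were in 3 of 6, against 13.6%, and those of the endothelial ETS factor ERG, ACAGGAA, in 1 of 6, the second start of Tfpi, against 8.67%. The counts are of genes, Tfpi counting where either start matched, while the percentages are of single promoters. The TATA matches of F3 (at 44) and Tfpi (at -127) read TTTATA, on the other strand, and that of Anxa2 lay at -17. The GAS letters of STAT factors, TTCNNNGAA, were in 0 of 6, against 8.3%. Also in 0 of 6 were the form of the NF-kappa-B site that was searched (0.411%) and the core of the interferon-stimulated response element (3.44%). That core was found in the promoter of Edn1, at -78. Other forms of the NF-kappa-B site were not searched, so its count does not show that F3 or the other promoters lack such a site. The AP-1 and KLF letters do not overlap each other in the matches found.

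F5 encodes factor V, the cofactor of factor Xa, and had the largest SE of the 9 genes (0.25 on the log2 scale). It had 6.71, 6.86 and 7.66 in LPS-treated mice, against 6.93, 6.79 and 7.22 in vehicle-treated controls. The SD was 0.51 after LPS and 0.22 after vehicle, and the log2 fold change was 0.10 with a 95% confidence interval of -0.51 to 0.70 (adjusted p = 0.890 from limma). Without LPS mouse 3 it was -0.20. Over the 6 arrays, F5 had a Pearson's r of 0.84 with the mean of markers of the choroid plexus, the epithelium that makes cerebrospinal fluid. The r was similar with astrocyte (0.86) and neuronal (0.82) markers, and it was -0.89 with hepatocyte markers, which were at background. The 6 measured choroid plexus genes of 7 averaged -0.19, -0.37 and 0.28 relative to the control mean in LPS mice 1, 2 and 3, against -0.07, -0.05 and 0.12 in PBS mice 1, 2 and 3, so that mouse 3 was highest in each group for both. Astrocyte genes were also highest in mouse 3 of each group, over a smaller range in the LPS group. They averaged -0.00, -0.04 and 0.13 in LPS mice 1, 2 and 3, against 0.02, -0.11 and 0.09 in PBS mice 1, 2 and 3. The endothelial genes given above were also highest in mouse 3 of each group. In the pericyte and smooth muscle list and the fibroblast list, PBS mouse 3 was instead the lowest control (-0.06 in both). Clic6, a chloride channel protein of the choroid plexus, had 7.74, 7.41 and 8.43 in LPS-treated mice, against 8.06, 7.90 and 8.29 in controls. Aqp1, of the same list and added here after its values were seen, was not highest in mouse 3 of either group. It had 6.58, 6.34 and 6.42 in LPS-treated mice, against 6.34, 6.53 and 6.41 in controls. None of the 6 passed limma and none had an unadjusted p under 0.05. The part of the amount of choroid plexus or of any other cell type in the F5 values was not tested.

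F8 encodes factor VIII, the cofactor of factor IXa, made largely by endothelial cells. Its log2 expression was 7.95, 7.76 and 7.94 in LPS-treated mice, against 7.96, 8.18 and 8.04 in vehicle-treated controls. Every LPS value lay below every control value, with LPS mouse 1 and PBS mouse 1 as the closest pair, and 11.2% of all genes had this order. The log2 fold change of -0.17 (95% confidence interval -0.40 to 0.05) did not pass (adjusted p = 0.437 from limma).

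Thbd encodes thrombomodulin, the endothelial receptor that turns thrombin from clotting to the activation of protein C. It had 7.65, 7.55 and 7.92 in LPS-treated mice, against 7.24, 7.71 and 7.83 in vehicle-treated controls. The groups overlapped, PBS mouse 1 being the lowest, and the log2 fold change was 0.11 with a 95% confidence interval of -0.30 to 0.52 (adjusted p = 0.800 from limma). Without PBS mouse 1 it was -0.06. Procr encodes the endothelial protein C receptor, which hands protein C to that complex. It had 5.96, 5.74 and 5.75 in LPS-treated mice, against 5.87, 5.86 and 5.98 in controls, and 0 of 6 arrays put it above the background level. A difference in Procr (-0.09, 95% confidence interval -0.30 to 0.13, adjusted p = 0.699) was therefore not measurable here.

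Plat encodes tissue plasminogen activator, the protease that starts fibrinolysis and is also made by neurons. It had 8.47, 8.26 and 8.55 in LPS-treated mice, against 8.76, 8.59 and 8.77 in vehicle-treated controls. All LPS values lay below all control values, and the log2 fold change was -0.28 with a 95% confidence interval of -0.53 to -0.04. The unadjusted p was 0.0284 and the adjusted p 0.301 from limma, so that Plat did not pass. It passed under 1 of 18 alternatives, the fit with array weights (-0.25, adjusted p = 0.0372), and without LPS mice 1 and 2 its log2 difference was -0.16 (adjusted p = 0.698).

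Anxa2 encodes annexin A2, which binds plasminogen and tissue plasminogen activator at the endothelial surface. It had 7.23, 7.00 and 7.34 in LPS-treated mice, against 6.47, 6.71 and 6.72 in vehicle-treated controls. The groups lay apart, as 9.79% of all genes did in this direction, and the log2 fold change was 0.56 with a 95% confidence interval of 0.27 to 0.84, or 1.47-fold. The adjusted p was 0.133 from limma (unadjusted 0.00247, rank 660 of 35556 clusters), so that Anxa2 did not pass, and it passed under 1 of 18 alternatives, the fit with array weights (0.60, adjusted p = 0.00632). Without LPS mice 1 and 2 its log2 difference was 0.71 (adjusted p = 0.212). PBS mouse 1 was at background. S100a10, added here after its values were seen, encodes the partner that forms the plasminogen-binding tetramer with annexin A2. It had 10.60, 10.20 and 10.85 in LPS-treated mice, against 10.71, 10.78 and 10.69 in controls, and the groups overlapped (-0.18, adjusted p = 0.636).

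**Figure D4:**
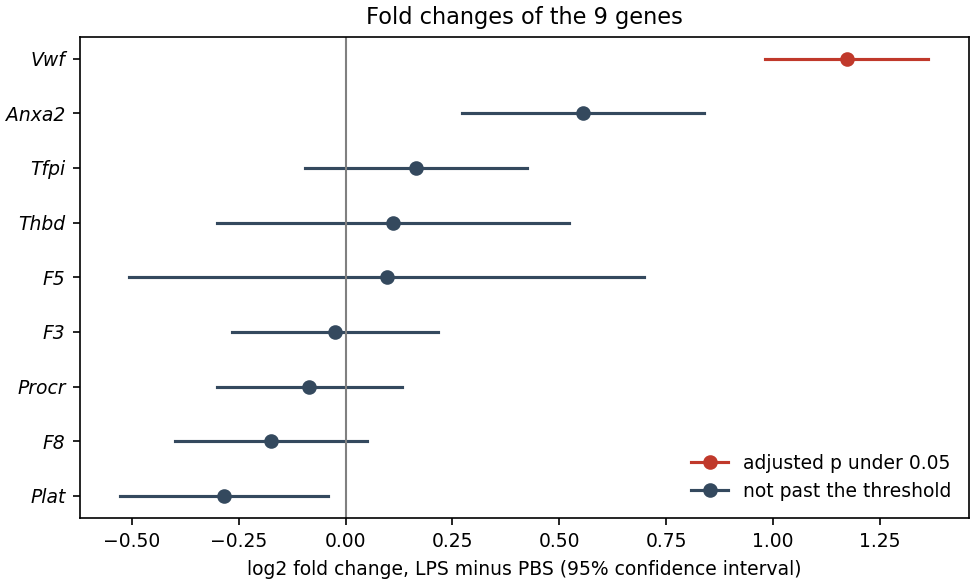
Log2 fold changes of the 9 genes, LPS minus PBS, with their 95% confidence intervals from limma (n = 3 mice per group), ordered from highest to lowest. The interval of Vwf (red, adjusted p under 0.05) runs from 0.98 to 1.36 and overlaps that of no other gene, and the intervals of Anxa2 and Plat also exclude 0 although neither passed the adjusted threshold.

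Ordered by log2 fold change, Vwf (1.17) came first and Anxa2 (0.56) second. The intervals of those 2 do not overlap, while those of each other pair of neighbours down to Plat (-0.28) do. Of the 9 genes, 2 had all LPS values above all control values and 2 had all below, against 9.79% and 11.2% of all genes. The direction of Vwf, Tfpi, F8, Plat and Anxa2 was the same under all 18 alternatives, and that of Thbd, Procr, F3 and F5 turned under at least 1.

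Of 54 symbols listed for the rest of the pathway, 48 were named alone, and limma gave 1 of them (Edn1) as higher and 0 as lower, the other 47 missing the threshold, where 0.848% and 0.0351% of all genes were called. At an unadjusted p under 0.05, 4 were higher and 4 lower, against 6.24% and 7.24% of all genes, and the methods' t-test called none. Their median log2 fold change was -0.03, and 26 of the 48 lay at or below the background level in all 6 arrays. Groups lay apart for 7 of the 48 genes in each direction, against 9.79% higher and 11.2% lower over all genes.

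Plasma procoagulant factors, which the liver supplies to the blood, were mostly at background in brain. Of 12 measured, 11 were at or below the background level in all 6 arrays and none passed limma, with 1 higher and 2 lower at an unadjusted p under 0.05 and a median log2 fold change of -0.06. F13a1, the fibrin crosslinking transglutaminase that macrophages also make, had 6.52, 6.57 and 6.67 in LPS-treated mice, against 6.04, 6.31 and 6.13 in vehicle-treated controls (0.43, adjusted p = 0.146). F12 and F9, the proteases of the contact and intrinsic steps, differed by -0.31 and -0.24 on the log2 scale (adjusted p = 0.271 and 0.277) at background levels. All 7 hepatocyte markers were also at or below background in all 6 arrays.

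Among 11 anticoagulants and inhibitors none passed limma, with 1 higher and 1 lower at an unadjusted p under 0.05 and a median of -0.04. Serping1, the inhibitor of C1 esterase, kallikrein and factor XIIa, had 8.93, 8.98 and 9.09 in LPS-treated mice, against 8.27, 8.61 and 8.31 in vehicle-treated controls. The groups lay apart by 0.60 in mean log2 level (95% confidence interval 0.34 to 0.87), and Serping1 did not pass (adjusted p = 0.0936 from limma). Serpind1, which encodes heparin cofactor II, had 7.64, 7.73 and 7.78 in LPS-treated mice, against 7.95, 8.00 and 8.02 in controls (-0.27, adjusted p = 0.223). For Gas6, a vitamin K-dependent ligand of the TAM receptors, the difference was -0.18 (adjusted p = 0.357).

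None of 9 genes of fibrinolysis and its inhibitors passed limma or had an unadjusted p under 0.05, and the median was 0.06. Serpinb2, the macrophage inhibitor of urokinase, was at background in all 6 arrays (-0.34, adjusted p = 0.410). Lrp1, which clears tissue plasminogen activator, and Serpini1, the neuronal inhibitor of the same protease, differed by 0.11 and 0.12 on the log2 scale (adjusted p = 0.558 and 0.584). The 95% confidence interval for Serpini1 ran from -0.10 to 0.34. Among 3 thrombin receptors none passed limma or had an unadjusted p under 0.05, and F2r, the main one, differed by -0.25 on the log2 scale (adjusted p = 0.438).

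Of 7 genes for factor maturation, secretion and von Willebrand factor cleavage none passed limma, 1 was lower at an unadjusted p under 0.05 and the median was -0.18. Vkorc1, which recycles vitamin K for clotting factor carboxylation, had 9.19, 9.33 and 9.11 in LPS-treated mice, against 9.36, 9.47 and 9.56 in vehicle-treated controls (-0.25, adjusted p = 0.312). The difference was -0.18 for Furin (adjusted p = 0.353), the protease that removes the von Willebrand factor propeptide, and -0.26 for Mcfd2 (adjusted p = 0.395), which helps carry factors V and VIII out of the endoplasmic reticulum. For all 3 every LPS value lay below every control value, an order that 11.2% of all genes had. In 2 others of the 7 every LPS value lay above every control value, against 9.79% of all genes. Among the 11 other annexins none passed limma, 2 were higher at an unadjusted p under 0.05 and the median was 0.01. Anxa4, a membrane-binding relative of Anxa2, had 6.92, 6.81 and 7.05 in LPS-treated mice, against 6.51, 6.54 and 6.52 in controls (0.40, adjusted p = 0.131), and for Anxa3 the difference was 0.53 (adjusted p = 0.291).

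**Figure D5:**
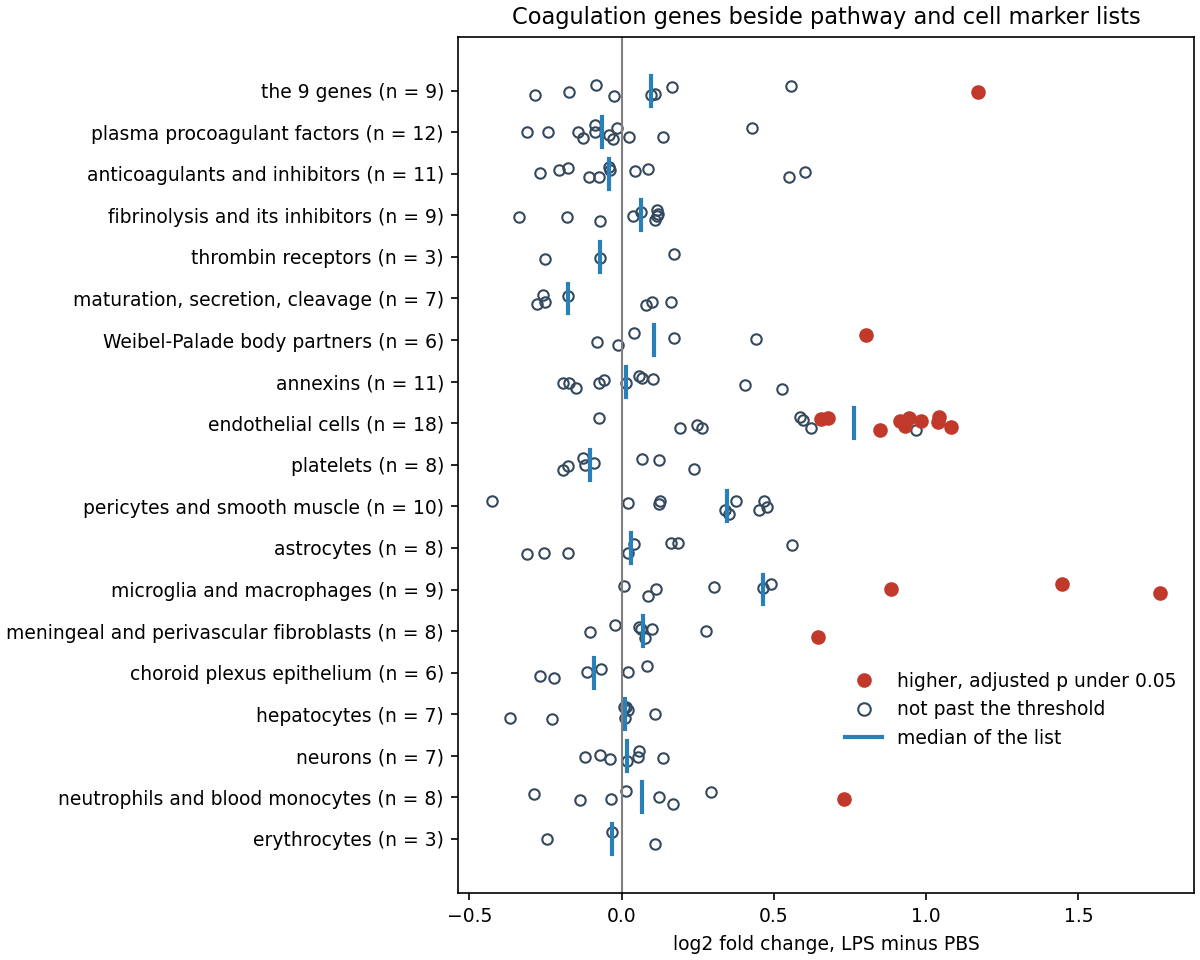
Log2 fold changes, LPS minus PBS, of the 9 genes and of the pathway and cell marker lists, 1 point per gene, with n the genes measured. Filled red points passed limma (adjusted p under 0.05), open points did not, and the blue bar is the median of a list. The medians of the endothelial (0.76), microglia and macrophage (0.47) and pericyte (0.35) lists lie to the right of those of the coagulation lists, which run from -0.18 to 0.11.

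Markers of other cells were read in the same arrays. All 7 neuronal markers lay above background in every array of this brain tissue and none passed limma or had an unadjusted p under 0.05 (median 0.02). Among 9 microglia and macrophage markers, 3 passed as higher and 6 missed the threshold (median 0.47). These were Itgam (1.77, adjusted p = 0.00317 from limma) and Adgre1 (1.44, adjusted p = 0.00327), 2 surface proteins of myeloid cells, and Ptprc (adjusted p = 0.0155), the leukocyte antigen CD45. Without LPS mouse 1 or any 1 control Ptprc did not pass (adjusted p 0.0626 to 0.0950). None of 10 pericyte and smooth muscle markers passed, with 5 higher at an unadjusted p under 0.05 and a median of 0.35. Of 8 fibroblast markers Dcn, a matrix proteoglycan, was higher (0.64, adjusted p = 0.0466), and of 8 neutrophil and monocyte markers Csf3r, the receptor for granulocyte colony-stimulating factor, was higher (adjusted p = 0.0188). The control values of Csf3r and of Ptprc were below the background level, so that their fold changes are not exact, and 7 of the 8 neutrophil and monocyte markers were at or below it in all 6 arrays. The calls of Dcn and Csf3r ended without any single array other than LPS mouse 3 (adjusted p 0.0987 to 0.230 for Dcn and 0.0595 to 0.109 for Csf3r). All 3 measured erythrocyte markers were at background and missed the threshold, Alas2 with an unadjusted p of 0.0134 and a log2 difference of -0.25. The part of these cells in the results for the 9 genes was not tested.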

How the data were processed

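The log2 expression values used here are those deposited by the authors, made by robust multichip average (RMA) from Affymetrix GeneChip Mouse Gene 1.0 ST arrays. The paper's methods name RMA adjusted for GC content and RMA 16, and the table is of the first form by its fold changes, which came within 1% of the listed ones for 53 of 54 genes of that form and 0 of 20 of the other. No probe-level signals were used here. The table was taken as deposited, with no filter.

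The 9 genes, the other gene lists and the tests were chosen with earlier results of these data known. Genes were named from the platform annotation where a cluster names 1 gene (21789 of 35556 clusters), and the cluster with the highest mean stood for a gene with several. Of 178 listed symbols, 18 were not found in this way and were not analysed here. LPS arrays were compared with PBS arrays, grouped by their labels, by limma (version 3.58.1, functions lmFit and eBayes, R version 4.3.3). Tests were two-sided, p-values were adjusted by Benjamini-Hochberg across the whole table, and the threshold was 0.05. The fitting function was tried on simulated arrays with independent noise in each cluster. That setting lacks the differences between arrays that many clusters share here, so it does not show the error rate of these calls. In each list, the text names up to 3 genes with the smallest p. Promoters and coordinates are those of RefSeq on GRCm38.p6, and the motifs were chosen from general knowledge. Alternatives were the methods' t-test (for 2 groups the same as the one-way analysis of variance that the methods name for the GC-adjusted values), quantile normalization, centring on array medians, array weights, an intensity trend or robust variances in eBayes, omission of the dimmest 40% of clusters, a replicate block, an adjusted threshold of 0.1, an offset of 32 on the linear scale, the mean of a gene's clusters and each array left out in turn. Leaving out LPS mice 1 and 2, which takes the spread from the PBS arrays alone, was chosen after seeing the data, as were all alternatives for the endothelial count, Edn1 and other single genes of the lists.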

Additional observations from a re-analysis of the deposited data

How the results depend on the processing

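With 3 mice per group, the number of arrays limits the precision, and genes at the background level, such as Procr, carry little information on a difference. Vwf kept its call under 17 of 18 alternatives, with log2 fold changes of 1.02 to 1.25, the exception being the methods' t-test (adjusted p = 0.0621). The 1 member called higher became 0 under the methods' t-test and 2 with array weights, and the 0 called lower became 1 with array weights. Array weights gave LPS mouse 1 a weight of 8.69, against 0.492 and 0.253 for LPS mice 2 and 3 and 0.864 to 1.20 for the controls. With them, Plat (-0.25, adjusted p = 0.0372) and Anxa2 (0.60, adjusted p = 0.00632) passed limma. Signs turned for Procr (0.0451) and F5 (-0.23) with array weights, for F5 with quantile normalization (-0.00115), for F3 with array weights (0.0169) and without LPS mice 1 and 2 (0.10), and with single arrays left out, over which Thbd ranged from -0.0639 to 0.229, F3 from -0.0895 to 0.0663 and F5 from -0.20 to 0.28. None of these 4 genes passed limma under any alternative, and the cause was not tested.

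The count of other pathway genes called higher (1) was 0 under the methods' t-test, with arrays centred on their medians, with a replicate block and without LPS mice 1 and 2, 5 with array weights, 2 at an adjusted p under 0.1 and 0 to 3 with single arrays left out. The count called lower (0) was 6 with array weights. The 10 endothelial genes called higher became 0 under the methods' t-test, 3 with a replicate block, 1 without LPS mice 1 and 2 and 4 to 13 with single arrays left out. Over all clusters, 232 higher and 22 lower became 4 and 1 under the methods' t-test, 4751 and 3572 with array weights, 141 and 10 with arrays centred, 76 and 4 with a replicate block, 356 and 64 at an adjusted p under 0.1, 71 and 12 without LPS mice 1 and 2, and 74 to 2640 and 0 to 1152 with single arrays left out, the highest counts being those without LPS mouse 3. With quantile normalization the lower count was 13. Centring shifted the median log2 fold change of all clusters to -0.09 and quantile normalization to -0.03, from -0.00 as deposited. Over all clusters, the deviations of mice with the same replicate number correlated at 0.09, -0.05 and 0.10. These values take all clusters together and cannot show whether single genes follow the number. F5, as given above, was highest in mouse 3 of each group. Whether the replicate number marks anything that the mice share was not tested. With that number as a block, Vwf kept its call (adjusted p = 0.0351) and no other of the 9 genes passed.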
